A study of Arabidopsis thaliana with 8 samples.

Results

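The question taken up here was how the response of dark-grown Arabidopsis seedlings to a short red light treatment differed when plastid translation was blocked with lincomycin. It was read from all 8 of the 8 arrays in the series, which form a 2 by 2 design with 2 arrays in each of 4 groups. All groups were whole wild-type seedlings of the Col-0 ecotype, 4 days old and grown in darkness on Murashige and Skoog medium containing sucrose. The dark group was harvested without light and without lincomycin. The red group received 30 min of red light and no lincomycin. The dark lincomycin and red lincomycin groups were treated in the same 2 ways on plates containing lincomycin, for which the labels give 220 µg/ml in one field and 200 µg/ml in another. The inhibitor was present in the plates from sowing, so plants on it had developed on it.

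For each probe set on the array, the light response was the mean log2 intensity of the illuminated group minus that of the dark group on the same medium. The interaction was the response on lincomycin minus the response without it, so a value of 0 means equal responses. A response was described by the share of it that remained on the other medium: kept at a share of 0.5 or more, weakened from 0.25 to 0.5, lost between -0.25 and 0.25, and reversed below that.

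Red light converts phytochrome to its active form, which enters the nucleus and removes the PIF transcription factors that sustain growth in darkness. Genes of auxin response and elongation then fall, and genes for photosynthesis, the clock and pigment synthesis rise, as etiolated seedlings begin to green. Lincomycin binds the bacterial-type ribosome of plastids, and damaged plastids are known to send retrograde signals that lower the expression of nuclear photosynthesis genes.

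The arrays were not of even quality. The ratio of the 3' to the 5' actin control probe sets was 41.2-fold on dark replicate 1 and between 2.24-fold and 3.67-fold on the other 7 arrays, and the hybridisation spikes averaged 7.35 log2 units on red replicate 1 and 8.07 to 9.29 on the others. The standard deviation of the difference between replicates without lincomycin was 0.538 log2 units among dark arrays and 0.442 among red arrays, against 0.211 and 0.224 on lincomycin. The response without lincomycin was therefore measured less precisely than the response on it. The test shared a pooled spread between all groups, so its p-values do not carry this difference, and counts of calls cannot be compared between the media. The labels do not say that replicates came from separate cultures, so a p-value measures array-to-array spread, which may be technical, and precision is limited by having 2 arrays in a group.

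Of the cell-type markers looked for, EXPA7 and EXPA18 of the 5 root hair genes were measured by a probe set with 1 listed gene, as were RCA and the LHCB4 genes of green tissue. The dark-state genes PHYA and PORA and the listed seed storage and oleosin genes of the embryo were not analysed here. Below, a gene of a list is called measured only where a probe set had it as its 1 listed gene. The others may be on the array under probe sets with several listed genes or none. In RNA of whole seedlings, fewer cells of a type and less RNA per cell cannot be told apart.

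Most of the responses to red light that passed the test without lincomycin were also present on it, and others were near 0 there. At an adjusted p under 0.05 (limma, Benjamini-Hochberg over all 22746 probe sets), red light raised 29 probe sets (0.127%) and lowered 14 (0.0615%) without lincomycin, and raised 13 (0.0572%) and lowered 1 (0.0044%) on it. With arrays weighted by their spread, 4 probe sets were called without lincomycin and 155 on it. Scaling every array to a common median moved the split without lincomycin to 78 of 96 higher, and quantile normalization to 39 of 47. It turned with low values raised to a floor (11 higher and 17 lower) and without dark replicate 1 and red replicate 1 (343 higher and 606 lower). Of the 43 probe sets called without lincomycin, 28 kept their response on it, 3 were weakened, 12 were lost and 0 were reversed. On lincomycin the 29 raised ones had a median response of 1.4 and the 14 lowered ones of -0.132. All 14 called on lincomycin had kept their response without it, and 11 probe sets were called in both comparisons, which share no array.

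IAA29, an Aux/IAA repressor of auxin signalling and a known target of PIF factors, read 8.41 and 8.33 log2 units on the dark arrays and 5.26 and 5.88 on the red arrays. On lincomycin it read 8.01 and 7.97 in the dark and 5.69 and 5.64 after red light. The illuminated arrays of both media lay far below all 4 dark arrays and overlapped each other. The response of IAA29 was -2.80 log2 units without lincomycin (adjusted p = 0.0121) and -2.33 on it (adjusted p = 0.0299), and the interaction was 0.47 ± 0.29 (SE) with a 95% confidence interval of -0.21 to 1.15.

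AT3G02910 was the gene with the largest called rise among probe sets with 1 listed gene. It read 5.97 and 5.89 in the dark and 8.79 and 8.92 after red light, and on lincomycin 6.20 and 6.64 in the dark and 8.77 and 8.62 after red light. Both illuminated groups reached one level, while the dark lincomycin arrays stood slightly above the dark arrays. Its response was 2.93 without lincomycin (adjusted p = 0.00957) and 2.28 on it (adjusted p = 0.0239), with an interaction of -0.65 ± 0.25 (adjusted p = 0.443).

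AT1G14200, which encodes a RING-type protein, read 6.50 and 6.33 in the dark, 7.7 and 7.84 after red light, 6.26 and 6.58 in the dark on lincomycin and 7.77 and 7.89 after red light on lincomycin. The 2 dark groups overlapped, and so did the 2 illuminated groups. Its response was 1.35 without lincomycin and 1.41 on it, and the interval of the interaction ran from -0.48 to 0.60 log2 units. AT4G17670, a gene of the FLZ zinc-finger family, was the third gene called on lincomycin, where its response was 1.90 (adjusted p = 0.0328) against 1.19 without it.

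AT5G15950, for S-adenosylmethionine decarboxylase of polyamine synthesis, had a response of 1.86 (adjusted p = 0.0402) without lincomycin and 1.04 on it. AT5G02580 had -1.70 (adjusted p = 0.0387) and -0.96. Both were thus near the lower edge of what was counted as kept. AFR, an F-box protein of phytochrome A signalling named here after its values were seen, had 1.69 and 1.04, neither of them called.

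**Figure D1:**
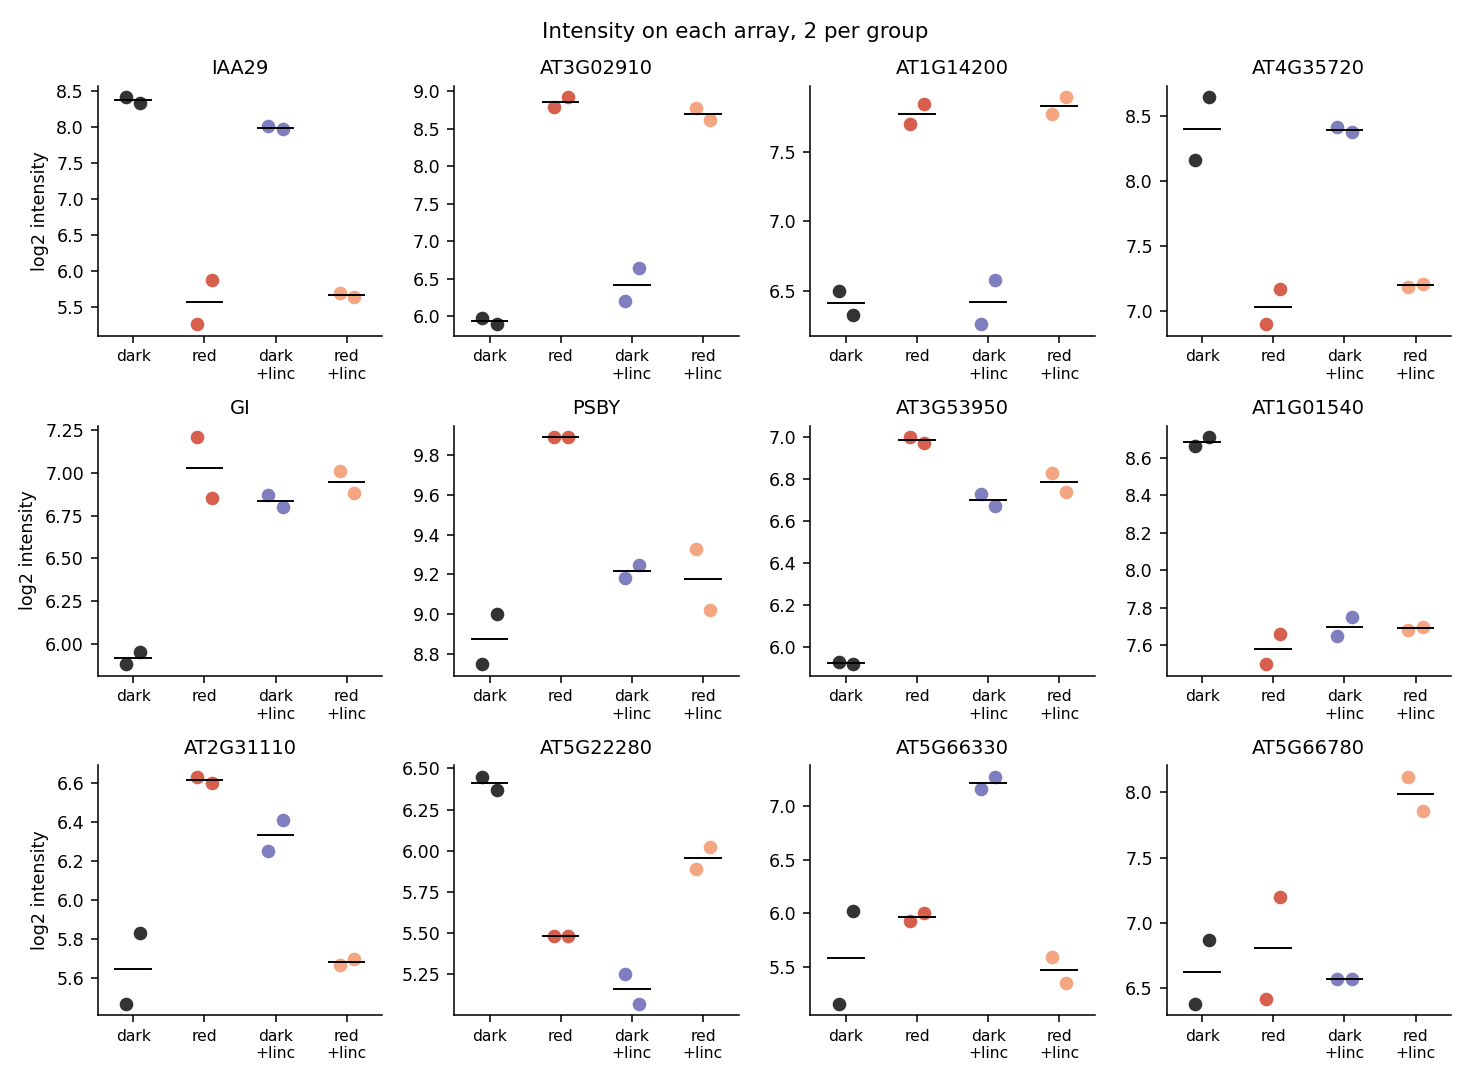
Log2 intensity on each of the 8 arrays for 12 genes; points are arrays (2 per group), the bar is the group mean, and the vertical scales differ between panels. IAA29, AT3G02910, AT1G14200 and AT4G35720 (top) kept their response on lincomycin by the share defined above. In GI, PSBY, AT3G53950 and AT1G01540 (middle) the light response on lincomycin lay between -0.04 and 0.11 log2 units. The bottom row shows genes whose response had the opposite sign or was seen mainly on lincomycin.

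The interaction itself was called for no gene. Of 22746 probe sets, 0 (0%) passed an adjusted p of 0.05 in limma, and the lowest adjusted p was 0.316. An unadjusted p under 0.05 was reached by 2359 probe sets (10.4%), of which 1479 (6.5%) lay above 0 and 880 (3.87%) below it. That split depended on scaling: 62.7% lay above 0 with the deposited values, 51.0% after quantile normalization and 35.9% after scaling to a common median, which moved the median interaction of all probe sets from -0.00517 to -0.126. Interactions were also simulated, with the same error spread on all arrays of a probe set. Of these, 8% of those of 1 log2 unit were recovered, 82% of those of 2, 98% of those of 3 and 100% of those of 4, with 10 false calls. Under that spread a change of 1 log2 unit was mostly not detected. The real arrays differed in spread between the media, so these shares may not hold for them. Leaving out dark replicate 2, the dark array with the ordinary actin ratio, gave 609 calls (190 above 0 and 419 below), with the remaining dark array assumed to vary like the other groups. Leaving out any other single array, or dark replicate 1 and red replicate 1 together, gave 0. All values below that concern a difference between the media are therefore descriptions, without a call.

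To follow the weaker responses, probe sets were taken that differed at least 2-fold between red and dark on one medium, at an unadjusted p under 0.01 and with no overlap of arrays, and were then read on the arrays of the other medium. Without lincomycin, 171 probe sets (0.752% of all tested) were induced and 103 (0.453%) repressed. On lincomycin, 63 (0.277%) were induced and 18 (0.0791%) repressed. Here too the split without lincomycin moved with scaling, from 62.4% induced to 82.9% with a common median and 79.5% with quantile normalization. It moved further with the arrays used. The sets held 148 induced and 424 repressed probe sets without dark replicate 1, 726 and 341 without dark replicate 2, 239 and 113 without red replicate 1, 190 and 411 without red replicate 2, and 259 and 322 without dark replicate 1 and red replicate 1 together.

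Of the 171 probe sets induced without lincomycin, 48 (28.1%) kept the response on lincomycin, 30 (17.5%) were weakened, 79 (46.2%) were lost and 14 (8.19%) were reversed. Their median response was 1.32 log2 units where it was chosen and 0.265 on lincomycin, with quartiles of -0.0361 and 0.851. Of the 103 repressed probe sets, 17 (16.5%) were kept, 6 (5.83%) weakened, 49 (47.6%) lost and 31 (30.1%) reversed, and their median went from -1.12 to 0.106. The reversed share of the repressed set was 12.5% without dark replicate 1, 9.73% without red replicate 1 and 7.45% without both, and its kept share was 4.48% without dark replicate 1, 6.74% without dark replicate 2 and 4.14% without red replicate 2. For the induced set without dark replicate 2, 6.61% were kept and 22.2% reversed. The sign agreed between media for 71.3% of the induced and 39.8% of the repressed probe sets, beside 46.2% of all probe sets.

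Read the other way, responses chosen on lincomycin were mostly present without it. Of the 63 induced probe sets, 45 (71.4%) kept their response, 1 was weakened, 13 (20.6%) were lost and 4 were reversed, with a median of 1.34 where chosen and 1.25 without lincomycin. Of the 18 repressed, 11 (61.1%) were kept, 3 weakened and 4 lost, with medians of -1.19 and -1.01. The 32 probe sets in both induced sets were 18.7% of the larger set and 50.8% of the smaller, and the 8 in both repressed sets were 7.77% and 44.4%. All sets were chosen with the pooled spread, although replicates differed more without lincomycin (0.538 and 0.442 log2 units) than on it (0.211 and 0.224). The kept shares of the 2 directions therefore cannot be compared directly. The part of array spread in their difference was not tested.

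**Figure D2:**
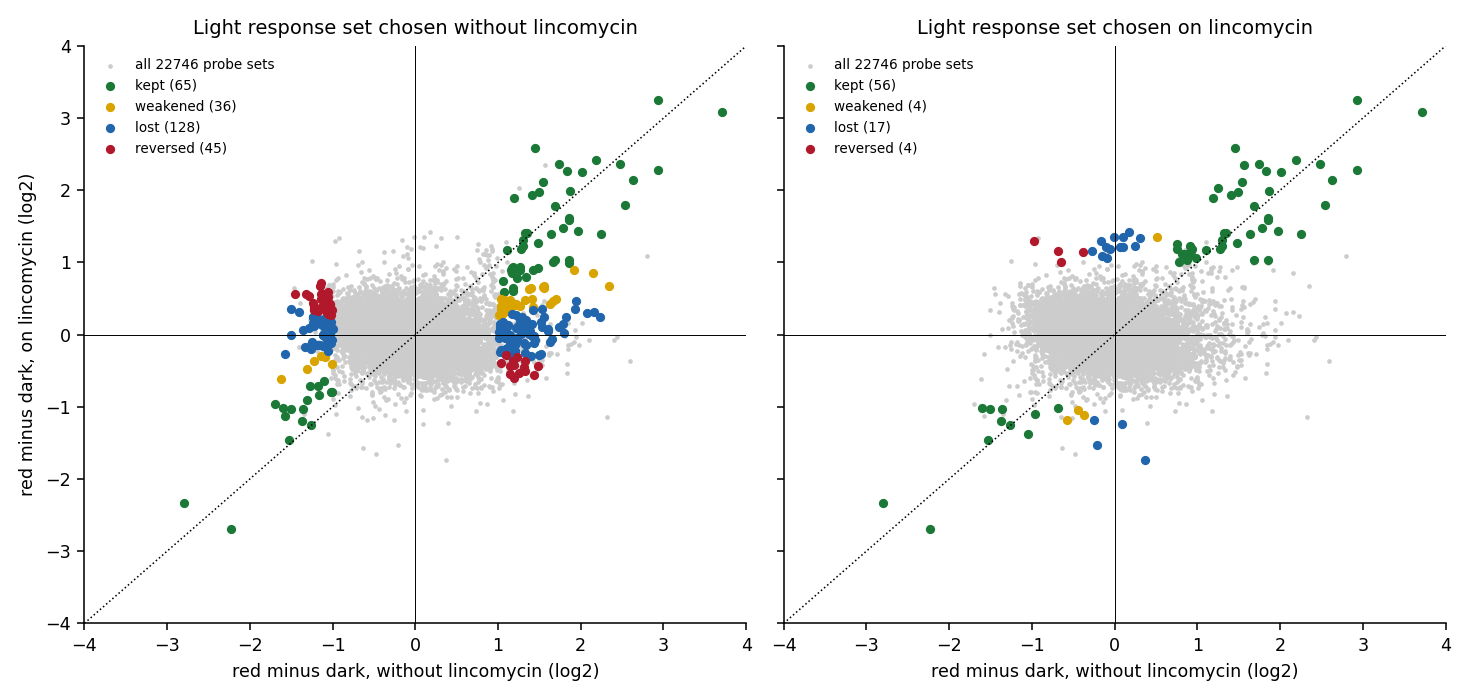
Light response on lincomycin (vertical) against the response without it (horizontal), in log2 units, for all 22746 probe sets (grey), with the probe sets chosen without lincomycin coloured on the left and those chosen on lincomycin on the right; the dotted line marks equal responses. Kept responses (green) reach from IAA29 at the lower left to the upper right, and the lost ones (blue, 128 on the left and 17 on the right) lie near 0 on the medium that did not choose them.

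A set chosen for its size shrinks wherever it is read again, so a similar step, without the limits on p-value and overlap, was repeated within a medium. For each of the 4 pairs of 1 dark and 1 red array, probe sets that differed at least 2-fold were read in the other pair of that medium, which had not chosen them, and in the other medium. Without lincomycin, probe sets that were higher in the choosing pair (274 to 1202 of them) had median responses of 1.18 to 1.39 there, of -0.137 to 0.966 in the held-out pair, and of -0.154 to 0.292 on lincomycin. Those that were lower had medians of -0.43 to 0.221 in the held-out pair and of -0.106 to 0.143 on lincomycin. Responses chosen in a single pair without lincomycin thus shrank between arrays of the same medium as well. These probe sets were chosen with looser limits than the sets above, so they do not give the shrinkage of those sets.

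The lincomycin arrays repeated one another better. Probe sets that were higher in a choosing pair on lincomycin (86 to 121) had medians of 0.876 to 1.21 in the held-out pair and of 0.685 to 1.07 without lincomycin. Those that were lower (35 to 88) had -0.914 to -0.486 in the held-out pair and -0.645 to 0.103 without lincomycin. In all 4 choosing pairs on lincomycin, and in both directions, the held-out median was larger in size than the median without lincomycin. Without lincomycin, the held-out medians of the higher probe sets were 0.335, -0.137, 0.232 and 0.966, beside -0.154, -0.0409, 0.116 and 0.292 on lincomycin. Those of the lower ones were -0.43, -0.0187, 0.221 and -0.195, beside 0.143, 0.0609, 0.103 and -0.106. In both directions the held-out pair had the sign of the choosing pair when dark and red replicates of equal number were joined, and in 2 of the 4 other cases it had the opposite sign.

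**Figure D3:**
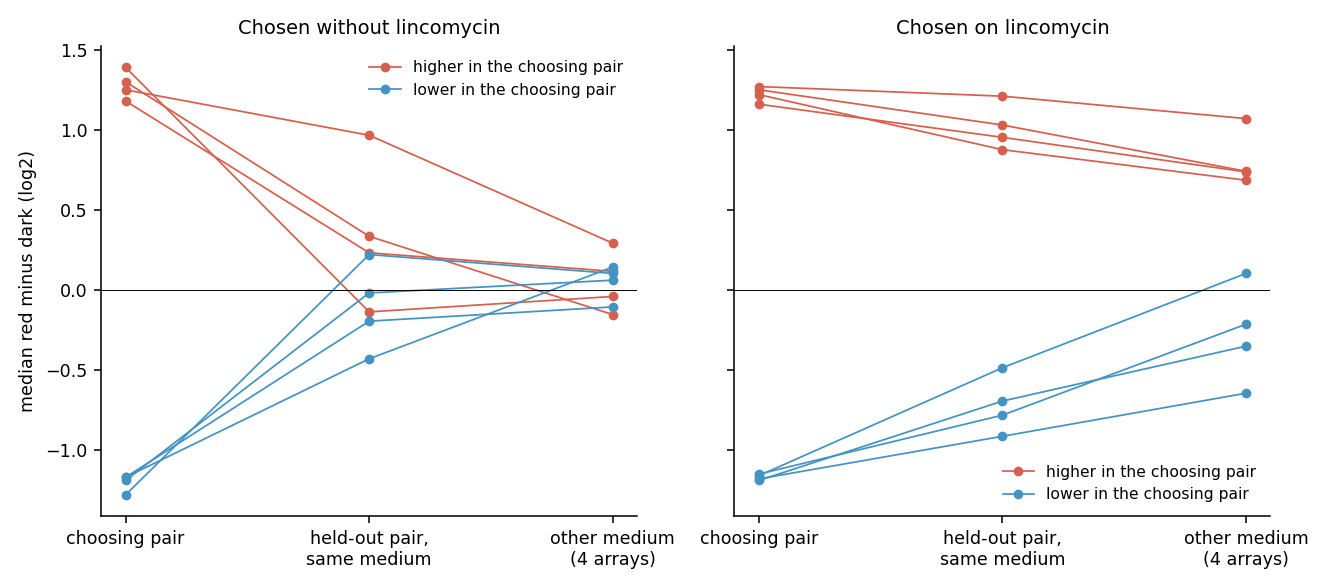
Median response (log2) of probe sets chosen in 1 pair of a dark and a red array, read in that pair, in the held-out pair of the same medium and in the other medium; each line is 1 of 4 choosing pairs, red for higher and blue for lower. Without lincomycin (left) the held-out medians run from -0.43 to 0.966, and on lincomycin (right) the higher sets stay between 0.876 and 1.21.

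For the lost responses, the level in the dark on lincomycin was already near the level that light gave without it. Relative to the dark group, the 79 lost induced probe sets had a median of 1.28 log2 units after red light, and on lincomycin of 1.22 in darkness and 1.17 after red light. The 49 lost repressed probe sets had -1.10, -0.963 and -0.957. The 48 kept induced probe sets by contrast had 1.49, 0.122 and 1.45, and the 17 kept repressed ones -1.36, -0.0427 and -1.06, so that in them the median levels of the 2 dark groups were close.

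The dark arrays took part in choosing these sets, so those levels carry no test. Both dark arrays lay below the other 6 in 75 of the 79 lost induced probe sets (94.9%), beside 8.79% of all probe sets. They lay above the other 6 in 46 of the 49 lost repressed ones (93.9%), beside 10.3%. The choosing rule had already set the dark arrays apart from the red ones, so the shares of all probe sets are not a like baseline. Of all 3834 probe sets with red arrays above dark arrays, 1999 had the dark arrays below the other 6. Of all 4148 with red below dark, 2337 had the dark arrays above the other 6. Against dark replicate 1 alone the lost induced probe sets stood 1.52 higher in the dark on lincomycin, and against dark replicate 2 alone 0.89, and for the lost repressed ones the values were -0.977 and -0.997. Re-chosen without dark replicate 1, without dark replicate 2, without red replicate 1 and without both dark replicate 1 and red replicate 1, the induced set lost 36.5%, 65.4%, 50.2% and 45.9% of its members and the repressed set 75%, 60.1%, 50.4% and 69.3%. Without red replicate 2 the shares were 45.3% and 68.1%, and the lost probe sets then stood at 0.659 and -0.534 in the dark on lincomycin, beside 1.16 and -1.18 after red light, so that the closeness of the 2 levels rested in part on that array. The part of the actin ratio of dark replicate 1 in these shares was not tested beyond these values.

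**Figure D4:**
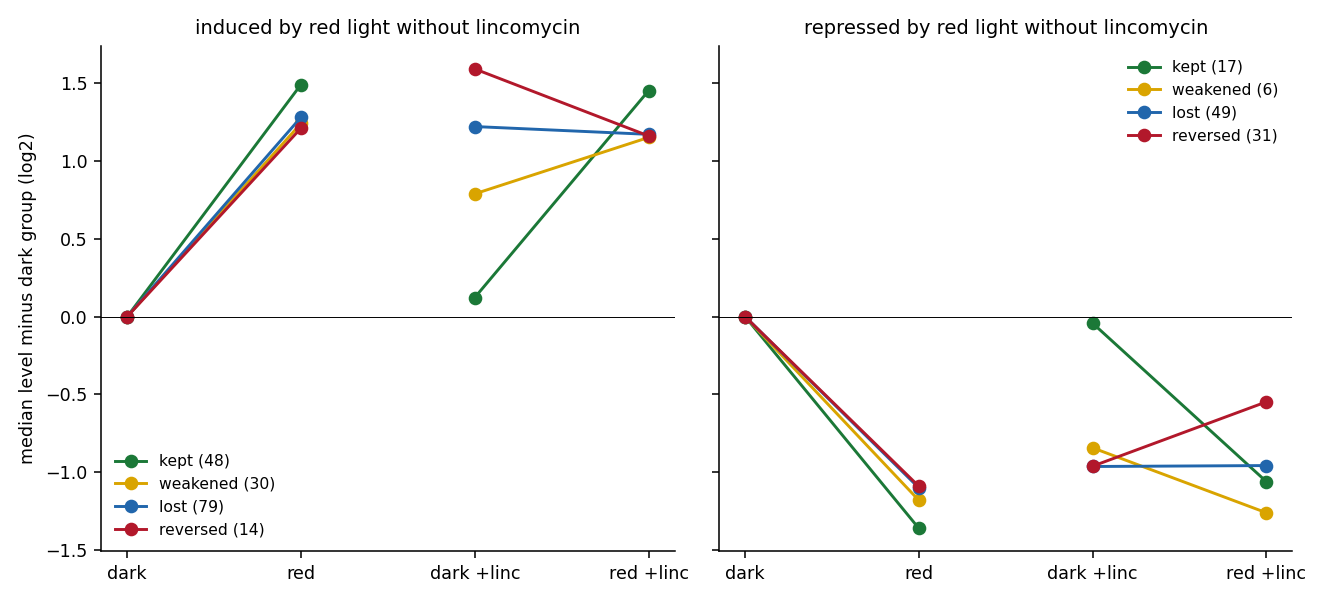
Median level of each class of light response in the 4 groups, in log2 units relative to the dark group, for probe sets induced (left) or repressed (right) without lincomycin; lines join dark to red on each medium and numbers in brackets count probe sets. Kept responses (green) start near 0 in the dark on lincomycin, whereas lost (blue) and reversed (red) ones start between 1.22 and 1.59 on the left and near -0.96 on the right.

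Several lost responses belonged to genes with known roles in light-regulated processes. GI, the clock and flowering-time protein GIGANTEA, read 5.88 and 5.95 in the dark, 7.21 and 6.85 after red light, 6.87 and 6.80 in the dark on lincomycin, and 7.01 and 6.88 after red light on lincomycin. Only the dark arrays were low, and the 6 others overlapped. Its response was 1.11 without lincomycin and 0.11 on it, with an interaction of -1.0 ± 0.23 (unadjusted p = 0.00279, adjusted p = 0.336). GI was the only 1 of 14 clock genes with a probe set of 1 listed gene, so the others were not read here.

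PSBY, a small nuclear-encoded subunit of photosystem II, read 8.75 and 9.0 in the dark and 9.89 on both red arrays, and on lincomycin 9.18 and 9.25 in the dark and 9.33 and 9.02 after red light. The red arrays lay above all others and the dark arrays below all others, dark replicate 2 by little. The response was 1.01 without lincomycin and -0.04 on it, and the interaction was -1.06 ± 0.23 (adjusted p = 0.336).

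The 3 LHCB4 genes encode a minor antenna protein of photosystem II. LHCB4.2 read 8.20 and 9.03 in the dark, 9.71 and 10.28 after red light, 8.72 and 8.86 in the dark on lincomycin, and 9.10 and 8.50 after red light on lincomycin. The red arrays were again the highest, and the other 3 groups overlapped. Its interaction was -1.37 ± 0.47 (adjusted p = 0.408), that of LHCB4.1 was -0.79 (unadjusted p = 0.0258), and the 3 genes had a median response of 0.44 without lincomycin and 0.00559 on it. With only 3 of 20 antenna genes having a probe set of 1 listed gene, the list shows no more than these members.

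AT3G53950, for a glyoxal oxidase-like protein, was among the lost responses that were called without lincomycin. It read 5.93 and 5.92 in the dark, 7.0 and 6.97 after red light, 6.73 and 6.67 in the dark on lincomycin and 6.83 and 6.74 after red light on lincomycin. The dark arrays lay apart below all others. The response was 1.06 (adjusted p = 0.0402) and 0.08, and the interaction -0.98 ± 0.18 (adjusted p = 0.316).

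AT1G01540, a protein kinase gene, gave the opposite picture, at 8.66 and 8.71 in the dark, 7.50 and 7.66 after red light, 7.65 and 7.75 in the dark on lincomycin and 7.68 and 7.7 after red light on lincomycin. The dark arrays were the only high ones. Its response was -1.11 (adjusted p = 0.0402) without lincomycin and -0.01 on it. The other lost responses called for single genes were those of AT2G22900, a galactosyltransferase (-0.97 and -0.04), the kinase AT1G56720 (-1.24 and 0.24) and AT5G53880 (-1.50 and 0.35). In total 5 of the 10 called probe sets with 1 listed gene kept their response and 5 lost it.

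Among the largest responses of the induced set, 3 fell in the lost class: AT1G73480, a lipase-like hydrolase, with 2.23 and 0.25, the glycine-rich protein AT3G06780 with 2.16 and 0.32, and the sugar transporter SWEET2 with 1.93 and 0.35. SWEET2 read 4.85 and 6.29 on the 2 dark arrays and AT1G73480 4.43 and 5.82, so their responses without lincomycin varied with the array used. Weakened responses, named after their values were seen, included PUB19, a U-box ubiquitin ligase (1.70 and 0.49), and AT1G70000, a MYB-type transcription factor (1.22 and 0.43).

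Responses of opposite sign on the 2 media had the lowest interaction p-values. AT5G22280 read 6.45 and 6.37 in the dark, 5.48 on both red arrays, 5.25 and 5.07 in the dark on lincomycin and 5.89 and 6.02 after red light on lincomycin. The 4 groups did not overlap, with dark highest and dark lincomycin lowest. The response was -0.93 without lincomycin and 0.79 on it, and the interaction of 1.72 ± 0.19 had the lowest p of all (unadjusted p = 3.8e-05, adjusted p = 0.316).

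In the other genes named for a high interaction the dark arrays were likewise the highest. AT3G44280 had responses of -0.93 and 0.61, AT3G59370 -1.14 and 0.50, the thioredoxin-family gene AT1G07700 -0.62 and 0.71, and I-2, an inhibitor of protein phosphatase, -0.91 and 0.43. AT5G46020 had -1.11 and 0.41, and AT3G15770 -0.97 and 0.46. AT3G06680, for ribosomal protein L29 of the cytosol, had -1.14 and 0.57, and its near-identical copy AT3G06700 had -1.06 and 0.52, but hybridisation may not separate the 2.

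In the other direction, AT2G31110, a member of the TBL family of polysaccharide acetylation, read 5.47 and 5.83 in the dark, 6.63 and 6.60 after red light, 6.25 and 6.41 in the dark on lincomycin and 5.67 and 5.70 after red light on lincomycin. The illuminated arrays were above the dark ones on plain medium and below them on lincomycin. The responses were 0.97 and -0.65, and the interaction was -1.62 ± 0.22 (adjusted p = 0.316). AT5G14540 had responses of 1.19 and -0.60, TMT1, a sugar transporter of the vacuolar membrane, 0.68 and -0.46, and the thaumatin-like gene AT2G28790 0.86 and -0.41. AT3G44430 had 1.13 and -0.28, AT3G06470, an ELO-like gene of fatty acid elongation, 0.83 and -0.16, and AT5G52420 1.41 and -0.02. AT2G07751 had 1.33 and -0.36, but it lies in a nuclear copy of mitochondrial DNA and its signal may come from either copy.

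The 2 root hair expansins also had responses of opposite sign on the 2 media. EXPA7 read 4.40 and 4.80 in the dark, 5.91 and 5.56 after red light, 5.38 and 5.88 in the dark on lincomycin and 5.37 and 5.01 after red light on lincomycin. The dark arrays of EXPA7 were lowest, and its red and dark lincomycin arrays overlapped. For EXPA18 the dark arrays (4.78 and 5.01) overlapped the red lincomycin arrays (5.36 and 4.90). EXPA7 had responses of 1.14 and -0.44 (interaction -1.58 ± 0.35, adjusted p = 0.336) and EXPA18 of 0.63 and -0.36. These are 2 of 5 root markers, and their mean level relative to all arrays was -0.68 and -0.37 in the dark, 0.54 and 0.17 after red light, 0.08 and 0.49 in the dark on lincomycin and 0.09 and -0.32 after red light on lincomycin. The part of tissue composition in the other results was not tested.

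Of the 63 probe sets induced on lincomycin, the 13 lost without it differed in which group stood apart. The dark lincomycin arrays lay below the other 6 in 7 of the 13 (beside 3.98% of all probe sets), and the red lincomycin arrays lay above the other 6 in 10 (beside 4.2%). Both groups took part in choosing the set, so these shares carry no test and those of all probe sets are not a like baseline. Of all 4928 probe sets with red lincomycin arrays above dark lincomycin arrays, 906 had the dark lincomycin arrays below the other 6. In 956 of them the red lincomycin arrays lay above the other 6. Relative to the dark group the medians of the 13 lost probe sets were -0.0114 after red light, and on lincomycin -0.562 in darkness and 0.658 after red light. AT5G66780 had the largest response of those with 1 listed gene. It read 6.38 and 6.87 in the dark, 6.42 and 7.20 after red light, 6.57 on both dark lincomycin arrays and 8.12 and 7.86 after red light on lincomycin. Only the red lincomycin arrays were high, with responses of 0.18 and 1.42 and an interaction of 1.24 (adjusted p = 0.381).

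Some other members of the induced set are given here, picked after their values were seen and with no count over a list. The LEA-type gene AT3G02480 read 9.35 and 9.57 in the dark, 9.38 and 9.43 after red light, 8.52 and 8.81 in the dark on lincomycin and 9.87 and 9.83 after red light on lincomycin. The dark lincomycin arrays were lowest and the red lincomycin arrays highest, with responses of -0.05 and 1.19 and an interaction of 1.24 (unadjusted p = 0.000707, adjusted p = 0.316). The oleosin gene AT2G25890, for a protein of seed oil bodies, had -0.10 and 1.22, the LEA-type gene AT2G23110 0.10 and 1.21, HIS1-3, a drought-induced linker histone, -0.27 and 1.16, and LEA18 -0.65 and 1.01. The oleosin gene AT3G01570 was in the same set but had 0.85 without lincomycin and 1.12 on it.

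The repressed set on lincomycin held AT5G66330, a leucine-rich repeat protein gene, which read 5.16 and 6.02 in the dark, 5.93 and 6.0 after red light, 7.16 and 7.27 in the dark on lincomycin and 5.60 and 5.35 after red light on lincomycin. The dark lincomycin arrays alone were high. Its responses were 0.37 and -1.74, and the interaction was -2.11 ± 0.38 (adjusted p = 0.316). The thaumatin-family gene AT4G36010 had -0.21 and -1.53, and WRKY22, a transcription factor of defence and wounding responses, -0.44 and -1.04. AT1G77200, an ERF-type transcription factor, had -1.05 and -1.38 and so was lower after light on both media.

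The gene lists were read by their interaction, and 0 members were called in any list. The 69 of 78 plastid-encoded genes that were measured had a median response of 0.443 without lincomycin and -0.0153 on it, beside -0.00337 and -0.00239 over all probe sets. Their interaction was below 0 in 55 of 69 genes, with a median of -0.33, beside -0.00517 for all. This rested on single arrays: without dark lincomycin replicate 1 the median was 0.0496, with 31 of 69 genes below 0, and without dark lincomycin replicate 2 it was -0.827. The median level of the list members, each relative to its mean over all arrays, stood at 0.50 on the first of these arrays and at -0.25 on the second. Leaving out other arrays moved it as well, to -0.16 without dark replicate 1, -0.527 without dark replicate 2, -0.76 without red replicate 1 and -0.127 without red replicate 2.

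Within the plastid genome, the 15 photosystem II genes (psb) had a median of -0.774, with 13 below 0, and this median ran from -1.27 to -0.522 when single arrays were left out. psbC, for the core antenna protein CP43, read 6.34 and 6.83 in the dark, 8.01 and 8.76 after red light, 7.99 and 6.64 in the dark on lincomycin and 7.42 and 7.25 after red light on lincomycin. The red arrays were highest, and the dark lincomycin replicates differed by more than the 2 illuminated groups did. Its interaction was -1.78 ± 0.63 (unadjusted p = 0.025), and that of psbZ was -1.47 ± 0.51 (adjusted p = 0.408).

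The 5 photosystem I genes had a median interaction of -0.437, the 6 ATP synthase genes -0.588, the 6 cytochrome b6f genes -0.346, the 10 NDH genes -0.326 and the 4 RNA polymerase genes -0.315. The ribosomal protein genes were at -0.0649 for 8 of the small and -0.088 for 7 of the large subunit. These medians rested on single arrays too: those of the small and large ribosomal subunit were -0.606 and -0.79 without red replicate 1, and 0.502 and 0.441 without red replicate 2. Without dark lincomycin replicate 1 they were 0.464 and 0.461, and those of ATP synthase and photosystem I were then 0.103 and -0.0034. The gene for the small-subunit protein rps14 was at 0.93 (unadjusted p = 0.00716). It read only 3.67 and 3.59 in the dark on lincomycin, near the floor of 3.51 log2 units used for low values. The 11 mitochondria-encoded genes that were measured had a median of -0.254, with 9 below 0. For nad1 and nad5, subunits of respiratory complex I, the responses were 0.84 and 0.91 without lincomycin and -0.05 and -0.06 on it.

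No light response of a measured nuclear gene of photosystems, antenna, Calvin cycle or tetrapyrrole synthesis was called on either medium. The 6 measured of 31 photosystem and electron transport genes, PSBY included, had median responses of 0.0976 without lincomycin and 0.105 on it. PSAE-1, a photosystem I subunit, read 10.30 and 10.17 in the dark, 10.78 and 9.83 after red light, 8.24 and 8.21 in the dark on lincomycin and 8.44 and 8.32 after red light on lincomycin. It read lower on lincomycin in darkness and light alike, with responses of 0.07 and 0.16. The Calvin cycle genes PRK and SBPASE had responses of -0.56 and -0.29 without lincomycin and -0.06 and 0.09 on it. RCA, the third one measured, had 0.45 and -0.17, and read 8.81 and 10.17 on the 2 dark arrays. The 9 measured of 30 tetrapyrrole synthesis genes had interactions between -0.286 and 0.474.

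Of the PIF-activated genes, 3 of 12 were measured. Beside IAA29, HAT2, a homeodomain factor of the shade response, had responses of -0.44 and -0.66, and FHL, which carries phytochrome A into the nucleus, -0.66 and 0.12. Among 5 of 18 auxin response genes the median interaction was -0.0263, with GH3.3, an auxin-conjugating enzyme, at -0.65 and -0.67 on the 2 media. The flavonoid gene UGT78D2 had 0.83 and 0.96. Of 6 cell wall genes, XTH19 had -0.75 and 0.15 and EXPA8 1.31 and -0.02, and EXPA8 read 8.31 and 9.98 on the 2 dark arrays.

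Of the 12 rapid stress genes, only WRKY22 and STZ had a probe set with 1 listed gene. STZ, a zinc-finger repressor of the abiotic stress response, read 4.69 and 4.56 in the dark and 5.36 and 5.37 after red light, and on lincomycin 5.72 and 5.53 in the dark and 5.40 and 5.57 after red light. The dark arrays lay apart below the other 6, and the interaction was -0.89 ± 0.20 (unadjusted p = 0.00309, adjusted p = 0.336). The 6 measured reference genes, chosen for stable expression in other work, had interactions from -0.79 to 0.524.

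**Figure D5:**
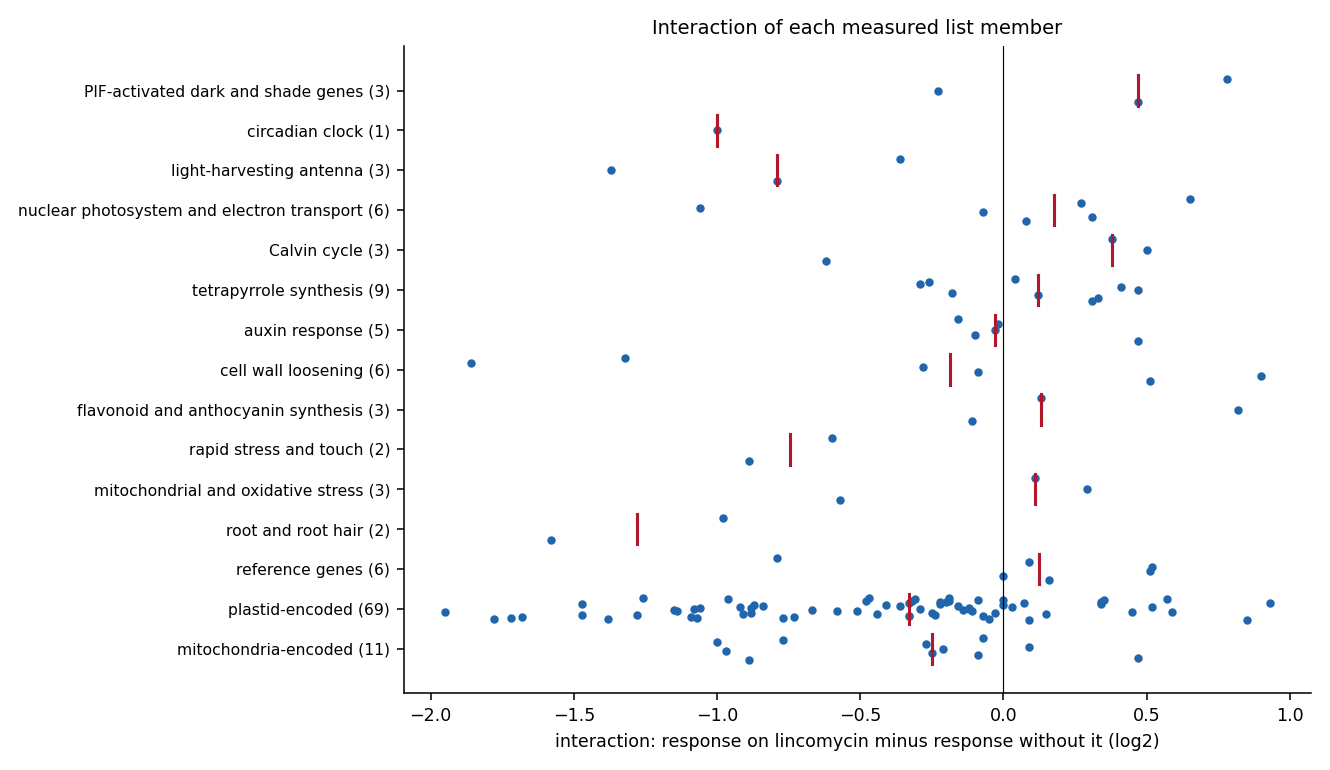
Interaction (log2) of each measured member of the gene lists, with the number measured in brackets and the median as a red bar; the vertical offset within a list only separates points. The points of the reference genes run from -0.79 to 0.524, the plastid-encoded genes from -1.95 to 0.93, and no point is a call.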

How the data were processed

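Total RNA was hybridised to 8 Affymetrix arrays. The deposited intensities, 1 for each probe set on each array, were made by the authors with RMA per the submitters' processing notes; the version is not given in the sources used here. The intensities were linear and log2 was taken here. Of 22810 probe sets, 64 controls were left out; 13513 had 1 listed gene, 503 several and 8730 none, and only the first kind was named. The labels gave the groups. limma 3.58.1 (lmFit, eBayes; R 4.3.3; 4 residual and 3.19 prior degrees of freedom) fitted 4 group means to all 8 arrays without a block, with 3 contrasts, two-sided, each adjusted by Benjamini-Hochberg. The fit was tested on simulated data.

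Named were the 10 lowest interaction p-values per sign (1 listed gene), single-gene light calls, the largest responses of each set (6 per sign without lincomycin, 4 on it) and up to 2 members per list by interaction p. In lists, the brightest of several probe sets stood for a gene. Of 359 genes in 20 lists, 132 had a probe set with 1 listed gene and are called measured. Members, lists and tests were chosen with earlier results of these data known. The alternatives were other scalings, low-value treatments, variance models, array weights, a replicate block and left-out arrays. Replicate numbers were not used to pair arrays.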

Additional observations from a re-analysis of the deposited data

How the results depend on the processing

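The count of 0 interaction calls held under every alternative except the omission of dark replicate 2 (0 to 609 calls when each array was left out). Light calls were less stable. Without lincomycin there were 43, and 96 with a common median, 28 with low values raised to a floor, 7 with a replicate block, 4 with array weights and 949 without dark replicate 1 and red replicate 1 together, and 0 to 1219 when single arrays were left out. On lincomycin there were 14, and 0 with the floor, 1 with the replicate block, 155 with array weights, 150 without both arrays, and 0 to 28 when single arrays were left out. The cause was not tested. With an array left out, the spread of the single remaining one was taken from the other groups. Deviations of equal replicate numbers correlated at 0.441 between the dark and red groups, and from -0.325 to 0.13 between the other groups. Whether equal numbers mark paired arrays was not tested. The block changed no interaction call but lowered the light calls, as given above.

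The median response on lincomycin of the set induced without it (0.265) was 0.00491 for a set at p under 0.05 and 1.5-fold, 1.4 for called probe sets, 0.117 with a common median, 0.181 with quantile normalization, 0.423 with the floor, 0.201 with a variance trend and -0.134 to 0.455 with arrays left out. For the repressed set (0.106) it was -0.132 for called probe sets, -0.0285, 0.0645, 0.0272 and 0.151 under the same 4 treatments of values, 0.0291 with array weights, -0.0993 without both arrays and -0.15 to 0.151 with arrays left out. Chosen on lincomycin, the induced set (1.25) gave 0.335 at the looser limits, 1.87 for calls, 1.36 with a common median, 1.3 with the floor, 0.954 with weights, 1.19 without both arrays and 0.954 to 1.35 with arrays left out. The repressed set (-1.01) gave -0.114, -2.8 for the 1 call, -0.578, -0.739 with quantile normalization, -0.67 without the dimmest 30% and with the trend, -0.64 with weights and -1.26 to -0.465 with arrays left out.

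The percent of lost responses, for which re-choosing without doubted arrays was added after seeing the data, ran from 33.3 to 65.4 (induced) and from 40.0 to 75 (repressed) when each of the 8 arrays was left out, and the dark lincomycin level of the lost probe sets from 0.659 to 1.51 and from -1.15 to -0.534. The interaction changed sign for AT1G14200 (-0.06 with a common median, -0.1 without both arrays, -0.1 to 0.22 with arrays left out). Without both arrays it did so for AT1G54120 (-0.01), UGT78D2 (-0.17) and AT2G21640 (-0.01). With single arrays left out it did so for UGT78D2 (-0.18 to 0.43), AT2G21640 (-0.05 to 0.63), AT4G35720 (-0.06 to 0.42), AT1G77200 (-0.82 to 0.17) and HYH (-0.34 to 0.03). That of IAA30 became 0 with the floor, which lies above all its readings. Without dark replicate 2, 21 of the 66 named probe sets were called.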
